A study of Mus musculus with 20 samples.

Results

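Killer lectin-like receptors are surface proteins best known from natural killer (NK) cells, and 10 of their genes were followed here through sorted liver macrophages and monocytes (MoMac). The 10 genes are Klra4, Klra7, Klra8, Klrb1c, Klrc1, Klrc2, Klrd1, Klre1, Klrg1 and Klrk1, out of 59311 genes in the table. They were chosen by their level in the data, because Klra7, Klrb1c and Klrg1 were among the genes with the largest difference between the MoMac subsets, so that difference is described below and its fits and calls are no evidence for it. All 10 passed the filter on low values, a group mean of at least 10 normalized counts in any of the 4 groups, which 17248 genes passed.

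The libraries came from 10 male C57BL/6J mice, 10 to 12 weeks old. Every mouse, controls included, had received 0.6 ml/kg carbon tetrachloride (CCl4), a liver toxin that causes fibrosis, 2 times a week for 4 weeks. Mice 16 to 20 were injected with 0.25 mg/kg Ac-6-FP, a ligand of the antigen-presenting molecule MR1 that inhibits mucosal-associated invariant T (MAIT) cells, and mice 11 to 15 with the vehicle (1% DMSO in PBS), starting 2 h before the last CCl4 dose and then daily for 2 days. From each liver, CD11b+ F4/80+ cells negative for CD3, CD11c and Ly6G were sorted by their Ly6C level into Ly6C-hi and Ly6C-lo MoMac, about 30000 cells per library at a purity above 90%, which gave 5 libraries per subset and treatment. None of the antigens by which the Methods exclude cells from the gate is specific to NK cells.

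Killer lectin-like receptors work as pairs of opposing switches. Inhibitory members carry a tyrosine motif that recruits phosphatases such as SHP-1 when they bind major histocompatibility complex (MHC) class I or related ligands on a neighbouring cell, whereas activating members lack it and signal through small adaptors such as DAP12, DAP10 or the Fc receptor gamma chain. In mice most of the family lies in the NK gene complex on chromosome 6, where repeated duplication has left many near-identical copies. In the liver they are known mainly from NK cells and type 1 innate lymphoid cells.

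The bases just upstream of the start sites are shown for 7 members, because members with and without a shared short motif lay side by side in the complex. RefSeq promoters (GRCm38.p6) matched 8 of the 10 symbols. The sequences below are the 130 bases before an annotated start, all on the minus strand of chromosome 6 and read 5′ to 3′, with the core Runx motif TGTGGT in capitals on either strand (ACCACA is its reverse complement).

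Klrb1c, chr6:128788642-128788771: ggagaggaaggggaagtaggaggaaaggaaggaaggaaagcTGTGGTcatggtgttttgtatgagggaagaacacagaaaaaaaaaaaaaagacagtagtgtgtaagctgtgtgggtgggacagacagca

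Klrc1, chr6:129678974-129679103: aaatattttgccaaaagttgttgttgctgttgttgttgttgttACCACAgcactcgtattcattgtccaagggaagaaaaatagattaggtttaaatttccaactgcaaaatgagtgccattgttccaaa

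Klrc2, chr6:129660557-129660686: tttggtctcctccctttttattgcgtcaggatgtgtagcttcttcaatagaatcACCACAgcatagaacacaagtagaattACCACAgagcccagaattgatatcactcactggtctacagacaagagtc

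Klrk1, chr6:129623865-129623994: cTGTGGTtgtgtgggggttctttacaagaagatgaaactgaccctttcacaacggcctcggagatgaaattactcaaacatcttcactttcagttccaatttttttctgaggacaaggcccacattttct

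Klra4, chr6:130067272-130067401: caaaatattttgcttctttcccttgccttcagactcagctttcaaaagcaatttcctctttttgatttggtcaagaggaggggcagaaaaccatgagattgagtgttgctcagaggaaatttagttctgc

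Klra8, chr6:130129899-130130028: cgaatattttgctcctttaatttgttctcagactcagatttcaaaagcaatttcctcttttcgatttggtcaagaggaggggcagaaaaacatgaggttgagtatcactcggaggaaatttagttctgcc

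Klra7, chr6:130233323-130233452: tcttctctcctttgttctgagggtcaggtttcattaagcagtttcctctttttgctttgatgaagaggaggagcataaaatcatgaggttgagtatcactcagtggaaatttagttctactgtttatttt

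Searched over the 250 bases before each start, TGTGGT on either strand was found in 6 of the 12 promoters of the 8 members (those of Klrb1c, Klrc1 and Klrk1, both of Klrc2 and 1 of Klre1), and in 14% of all 32851 promoters. The pairs of promoters of Klrc2, Klre1 and Klra8 overlap, so the 12 are not all separate cases. Its first base lay 89 bases before the start in Klrb1c, 87 in Klrc1, 76 and 49 in Klrc2 and 129 in Klrk1. The starts of Klra4, Klra8 and Klra7 held no copy, and over 250 bases the starts shown for Klra4 and Klra8 shared 84.5% of aligned bases, Klra4 and Klra7 74% and Klra8 and Klra7 74.7%. The T-box core AGGTGT, in 11.8% of all promoters, was in none of the 12, and TTCNNNGAA, the STAT motif, in 1 of them against 7.02% of all promoters. These matches describe letters and not bound sites.

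Each library held 5693049 to 18682437 reads on genes, or at least 10298994 without the Ly6C-lo library of mouse 13. That library stood apart with the lowest total and 5343 genes above 0, against 9017 to 15766 in the others. Of 6652 genes with a median of at least 100 normalized counts, 2765 were at 0 in it. Where it alone sets the end of a range by more than 1.5 times, the value without it is also given. The macrophage markers Adgre1 (F4/80) and Itgam (CD11b) had reads in all 20 libraries, although Itgam was at only 2.09 normalized counts in that library (at least 1206 in the other Ly6C-lo libraries), and Ly6c2 was lower in Ly6C-lo (284 to 1014) than in Ly6C-hi MoMac (4930 to 10012), as the sort implies.

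Ly6C-lo MoMac carried all 10 members in every one of 10 libraries, and Ly6C-hi MoMac carried almost none. Summed over the members, normalized counts (reads divided by 1 size factor per library) were 13945 to 28991 in the Ly6C-lo libraries with a median of 18705, and 0 to 391 in the Ly6C-hi libraries with a median of 43.7. In each mouse every member was higher in Ly6C-lo, and for all 10 members the lowest Ly6C-lo library lay above the highest Ly6C-hi library, as it did for 0.974% of all tested genes. All 10 members passed the limma threshold of an adjusted p of 0.05 in this direction, against 3.44% of all tested genes, a count the choice of members fixes and from which nothing is read. In sorted bulk samples, fewer cells of a type and less RNA per cell cannot be told apart.

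The 3 Ly49 receptors were at 0 in every Ly6C-hi library. Klra7 (chr6:130218605-130237773, mm10) encodes the inhibitory receptor Ly49G2, which binds classical MHC class I. Its normalized counts in Ly6C-lo were 1597, 2498, 2047, 4225 and 2206 in vehicle mice 11 to 15 and 2925, 1741, 1834, 1745 and 1853 in Ac-6-FP mice 16 to 20. Mouse 14 was the highest and mouse 11 the lowest, and the 2 treatments overlapped. A value of 0 allows up to 3 reads per library, and against that floor Klra7 was at least 602-fold higher in Ly6C-lo in the mouse with the smallest bound (mouse 11). The fitted difference on the log2(normalized count + 1) scale was 11.08 (SE 0.45, 10 mice), the third largest of all tested genes, and depends on the added count of 1.

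Klra4 (chr6:130043731-130067273) and Klra8 (chr6:130115219-130129898) encode the activating receptors Ly49D and Ly49H, which signal through DAP12. Klra4 ranged from 542 normalized counts in mouse 19 to 1716 in mouse 13 (median 909), at least 210-fold above the floor in every mouse. Klra8 ranged from 362 in mouse 12 to 1200.4 in mouse 15 (median 1041), at least 113-fold above the floor. Like the inhibitory Klra7, both activating genes were thus read in every Ly6C-lo library and in no Ly6C-hi library.

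Klrb1c (chr6:128778487-128788644) encodes NK1.1, the activating receptor by which NK cells of C57BL/6 mice are usually recognised. In Ly6C-lo its normalized counts were 6122, 5125, 8294, 3438 and 7975 in vehicle mice 11 to 15. They were 9811, 6774, 11828, 4462 and 8540.3 in Ac-6-FP mice 16 to 20. The lowest value (mouse 14) and the highest (mouse 18) differed 3.44-fold, and the treatments overlapped. In Ly6C-hi it was at 0 in 6 libraries, at 1 read in mouse 15 and at 48.3, 99.9 and 66.3 normalized counts in mice 14, 17 and 20. The ratio of the subset means was 336, and mouse 17 had the smallest within-mouse ratio, 67.8.

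Klrg1 (chr6:122270609-122282833), an inhibitory receptor for cadherins that marks mature NK cells and effector T cells, was also at 0 in all Ly6C-hi libraries. In Ly6C-lo its normalized counts were 1509, 1409.9, 3233, 1499.85 and 1290.2 in vehicle mice 11 to 15 and 2351, 1097, 1402, 1918 and 2025 in Ac-6-FP mice. Mouse 13 stood above the other vehicle mice, whose values spanned 1.17-fold. In every mouse the Ly6C-lo value was at least 435-fold above the floor.

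**Figure D1:**
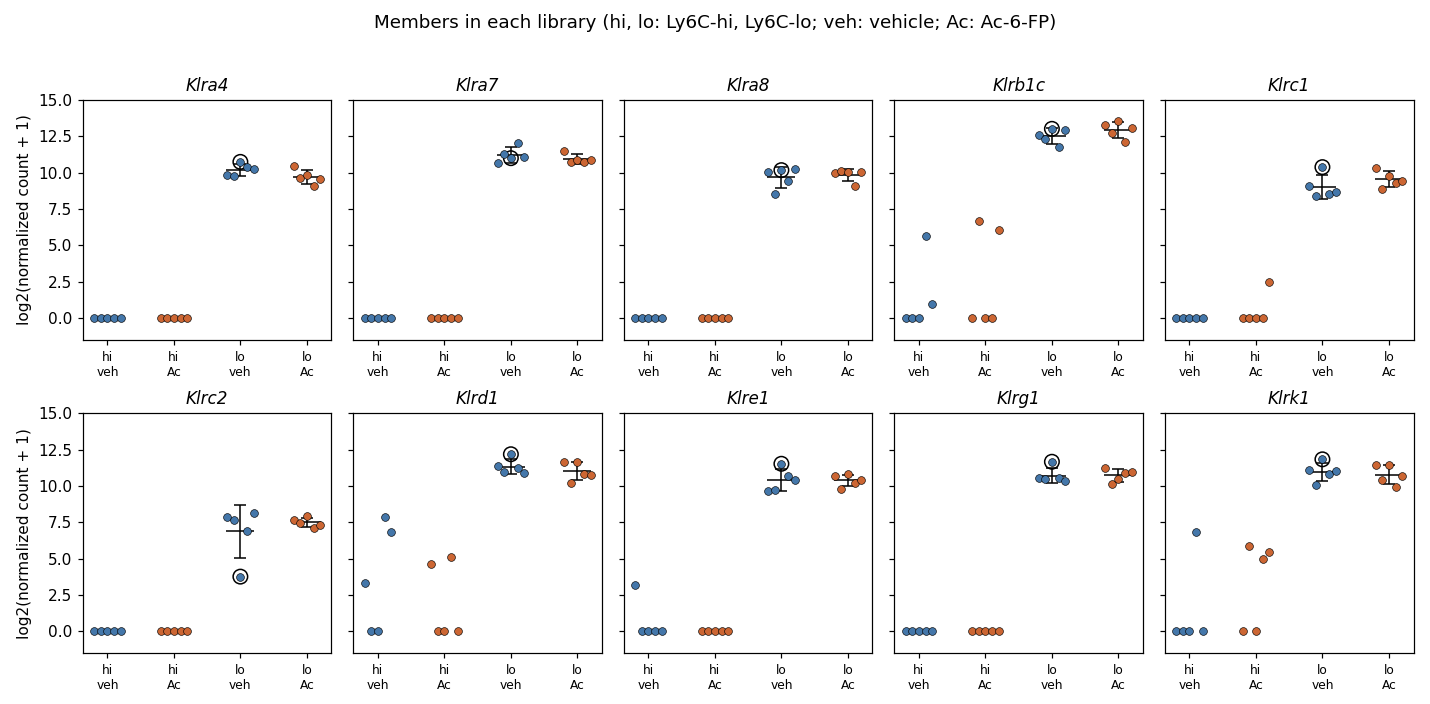
Normalized counts of the 10 members on a log2(value + 1) axis in each library, in Ly6C-hi (hi) and Ly6C-lo (lo) MoMac of vehicle (veh, blue) and Ac-6-FP (Ac, orange) mice. Bars are mean and SD of 5 libraries, drawn for Ly6C-lo only, and rings mark mouse 13. Every Ly6C-lo point lies above every Ly6C-hi point of the same member, and Klra4, Klra7, Klra8, Klrc2 and Klrg1 are at 0 throughout Ly6C-hi.

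Klrd1 (CD94, chr6:129591782-129598775) is the common partner that NKG2A (Klrc1, inhibitory) and NKG2C (Klrc2, activating) need to bind the nonclassical MHC molecule Qa-1. Klrd1 in Ly6C-lo was at 2589.8, 1987, 4629, 2454 and 1910.3 normalized counts in vehicle mice 11 to 15 and at 3155, 1153, 3222, 1815 and 1749 in Ac-6-FP mice. It was the member with most reads in Ly6C-hi, at 8.85, 232, 111, 23.7 and 32.7 normalized counts in mice 11, 14, 15, 16 and 19 and at 0 in the other 5. The subset means differed 60.4-fold, and the 2 values of mouse 14 differed 10.6-fold.

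The 2 chains that pair with CD94 did not vary alike over the Ly6C-lo libraries. Klrc1 (chr6:129666019-129678973) was at 532.5, 332, 1336, 369 and 416 normalized counts in vehicle mice and at 1289, 471, 891, 626 and 675 in Ac-6-FP mice. Klrc2 (chr6:129647496-129660689) was at 235, 202, 12.5, 119 and 286 in vehicle mice and at 204, 170.5, 243, 139.6 and 154 in Ac-6-FP mice. Mouse 13 was the highest of the 10 for Klrc1 and the lowest for Klrc2, which rested there on 6 reads. In Ly6C-hi, Klrc1 had 6 reads in mouse 20 and none elsewhere, and Klrc2 had none. Against the floor of 3 reads Klrc2 was at least 4.73-fold higher in Ly6C-lo in mouse 13, and at least 41.1-fold in each of the other mice.

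Klrk1 (NKG2D) is an activating receptor for stress-induced ligands, and Klre1 pairs with Klri1 or Klri2 into an inhibitory or an activating receptor. Klrk1 (chr6:129594491-130061533) ranged from 979 normalized counts in mouse 19 to 3631 in mouse 13 (median 1967) in Ly6C-lo. In Ly6C-hi it was at 110, 58.1, 30.9 and 41.7 in mice 14, 17, 19 and 20 and at 0 in the other 6. Klre1 (chr6:129577467-129585827) ranged from 816 in mouse 11 to 2936 in mouse 13 (median 1362, highest 1774 without mouse 13) in Ly6C-lo, and in Ly6C-hi it had 9 reads in mouse 11 and none elsewhere. The subset means differed 84.6-fold for Klrk1, and its smallest within-mouse ratio was 16.8 in mouse 14. For Klre1 the ratio in mouse 11, the only mouse with reads in Ly6C-hi, was 102. The interval the annotation gives Klrk1 overlaps the members Klrd1, Klrc1, Klrc2 and Klra4 and further genes of the family such as Klri1 and Klri2, and whether counting used strand is not stated.

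Reads of the members in Ly6C-hi were confined to 7 of 10 libraries and did not come in the proportions of Ly6C-lo. Mice 12, 13 and 18 had no read of any member, and mouse 14 had the most, 404 reads, all on Klrb1c, Klrd1 and Klrk1. No Ly6C-hi library had reads of more than 3 members, and the 5 members at 0 there (Klra4, Klra7, Klra8, Klrc2 and Klrg1) belonged to 16 genes, 0.0928% of those tested, that were at 0 in every Ly6C-hi and above 0 in every Ly6C-lo library.

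Close copies limit how far single members can be separated. Of all 75-base windows in GENCODE M21 transcripts, the read length used, 25% of Klrc1 windows occurred unchanged in another gene, mostly Klrc2, as did 19.7% of Klra8 (mostly Klra14-ps), 13.2% of Klrb1c, 11.3% of Klrc2, 5.71% of Klra7 and 0.342% of Klra4. Klrd1, Klre1, Klrg1 and Klrk1 shared no window with another gene.

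The table held 17 further killer lectin-like receptor genes, and 15 of them passed the filter. Of these, 12 (80%, against 3.44% of all tested genes) were higher in Ly6C-lo and none was lower by limma (adjusted p under 0.05). Without mouse 13, 12 were higher and Klra2 was lower. The median log2 difference was 6.00 against 0.03 over all tested genes. Of the 17, 9 were at 0 in every Ly6C-hi library, and those of them tested passed the filter through Ly6C-lo alone. The filter thus fixes the count and the median in part, and nothing is read from them. Klri2, a partner of Klre1, was at 2409 to 11199 normalized counts in Ly6C-lo (highest 5982 without mouse 13) and 0 to 79.0 in Ly6C-hi. Klra9 was at 712 to 2935 in Ly6C-lo, Klrb1b at 301 to 1894, Klra14-ps at 168 to 687 and Klra1 at 6.26 to 533 (lowest 142 without mouse 13). Klrb1a ranged from 10.4 in mouse 13 (lowest 128 without it) to 1534, and Klri1, the other partner of Klre1, from 10.7 to 407. In Ly6C-hi, Klra9 reached 115, Klrb1a 96.9, Klrb1b 53.3 and Klri1 112. That value of Klri1 was in mouse 13, whose Ly6C-lo library was lower, at 14.6. In 6 of the 15 tested genes (40%, against 0.974% of all tested genes) every Ly6C-lo library lay above every Ly6C-hi library.

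A few genes of the family did not follow this pattern. Klrb1f was present in both subsets, at 50.1 to 1304 normalized counts in Ly6C-lo (lowest 525 without mouse 13) and 255 to 941 in Ly6C-hi (log2 difference 0.24, adjusted p = 0.80 by limma, and 0.69, adjusted p = 0.092, without mouse 13). Klra2, a Ly49 gene also known from macrophages, was at 561 to 1784 in Ly6C-hi and 0 to 665 in Ly6C-lo, lower in Ly6C-lo in all 10 mice (log2 difference -2.08, adjusted p = 0.19 by limma, and -1.19, adjusted p = 0.0022, without mouse 13), with mouse 13 at 0 and the others at 359 or more. Klrg2 was at 0 in all libraries. Klrb1 passed the filter but had reads in only 2 Ly6C-lo libraries, and the pseudogene Klrb1-ps1 stayed under the filter. The remaining genes that were higher in Ly6C-lo, Klrc3, Klra17, Klra5, Klra6 and the row shared by Klra13-ps and Klra23, had highest values of 87.0 to 300.04 normalized counts.

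**Figure D2:**
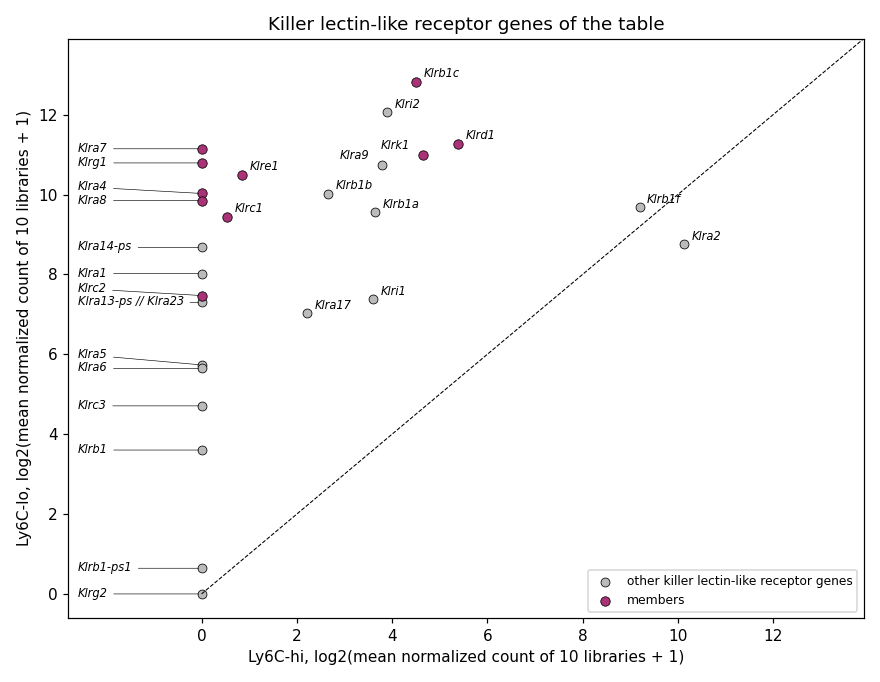
Mean normalized count of the 27 killer lectin-like receptor genes of the table in 10 Ly6C-lo libraries against 10 Ly6C-hi libraries, both as log2(mean + 1), with the line of equal means dashed. Members (purple) and most other genes (grey) lie far above the line, Klrb1f lies close to it and Klra2 below it.

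The adaptors and enzymes through which these receptors signal were mostly present in both subsets. Of 12 signalling genes, 4 were higher in Ly6C-lo and none lower by limma, with a median log2 difference of 0.27. Hcst, which encodes DAP10, the adaptor of NKG2D, was at 276 to 532 normalized counts in Ly6C-hi and 566 to 1793 in Ly6C-lo (highest 1152 without mouse 13, log2 difference 1.26, adjusted p = 0.014 by limma), without overlap. Sh2d1b1 (EAT-2) was higher by 1.86 and Fcer1g, the Fc receptor gamma chain, by 0.44 on the log2 scale. Zap70, a kinase of NK and T cells, had reads in 7 Ly6C-lo libraries (highest 345 normalized counts) and in 4 Ly6C-hi libraries (highest 11.5). Tyrobp, encoding DAP12, was at 11310 to 26264 in Ly6C-lo (lowest 17302 without mouse 13) and 18907 to 27880 in Ly6C-hi (log2 difference -0.05, adjusted p = 0.81 by limma). Ptpn6, encoding SHP-1, had a log2 difference of -0.05. Without mouse 13 these were 0.047 and 0.11, and neither passed the threshold.

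Ligands of the receptors gave 1 call among 8 tested genes. The classical MHC class I gene H2-K1 was at 5084 to 18352 normalized counts in Ly6C-lo (lowest 7726 without mouse 13) and 2904 to 5016 in Ly6C-hi, without overlap (log2 difference 1.54, adjusted p = 4.6e-06 by limma). For H2-D1 the log2 difference was 0.71 (adjusted p = 0.095 by limma) and passed the threshold without mouse 13 (0.85, adjusted p = 0.026), and for H2-T23, which encodes Qa-1, it was 0.23 (adjusted p = 0.70). Ulbp1, a ligand of NKG2D, was at or below 58.6 normalized counts in all 20 libraries and had reads in 7 of them. The other NKG2D ligand in the table, H60c, was at 0 in all libraries. Cdh1 (E-cadherin), a ligand of KLRG1, had reads in 7 Ly6C-lo libraries and 1 Ly6C-hi library and did not pass the threshold (adjusted p = 0.11). Clec2i and Clec2d, encoding ligands of the NKR-P1 receptors, had log2 differences of -1.85 and 0.01 (-0.78 and 0.90 without mouse 13), and neither passed it.

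Other NK cell genes moved with the members. Of 12 NK markers, 11 were higher in Ly6C-lo by limma, with a median log2 difference of 8.13 and a summed level of 40296 to 91379 normalized counts in Ly6C-lo and 193 to 1823 in Ly6C-hi. The cytotoxic genes Prf1 and Gzma were at 1606 to 7244 and 17527 to 38619 in Ly6C-lo, and Prf1 was at 0 in every Ly6C-hi library. Ncr1, which encodes the NK receptor NKp46, was at 198 to 2744 in Ly6C-lo (lowest 963 without mouse 13) and had reads in 1 Ly6C-hi library. Eomes had reads in 6 Ly6C-lo libraries (highest 240.1) and in no Ly6C-hi library. Gzmb, Nkg7, Il2rb, Cd160, Xcl1, Txk and Cd244 were the others that passed. Cd244 had reads in all 10 Ly6C-hi libraries, at 141 to 1414 normalized counts (log2 difference 1.28), and made up most of the list's level there. Tbx21 was the marker that did not pass (log2 difference 2.56, adjusted p = 0.13). Of the 2 type 1 innate lymphoid cell markers tested, 1 was higher in Ly6C-lo (Il7r). The sum of the 3 of 5 listed genes that were analysed did not exceed 361 normalized counts.

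Among T cell markers, the defining gene Cd3e had reads in 2 Ly6C-lo libraries, with at most 11.1 normalized counts, and none in Ly6C-hi. Cd3d reached 120 and Cd3g 226 in Ly6C-lo, Cd4 was at 0 in all Ly6C-lo libraries, and the summed list of 9 genes was 0 (mouse 13) to 593 in Ly6C-lo, with a median of 414 and a lowest value of 72.8 without mouse 13, and 0 to 140 in Ly6C-hi, with a median of 0. The T cell receptor constant genes Trac, Trbc1 and Trbc2 were not part of that sum. Lat, which NK cells also use, had a median of 241 in Ly6C-lo and was the only 1 of 6 tested T cell genes past the threshold. In the innate-like T cell list Il23r and Il17a were at 0 in all 20 libraries, Zbtb16 reached 47.3 in Ly6C-lo, and Il18r1, 1 of 2 tested, was higher in Ly6C-lo.

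Several lists of other cells also separated the subsets, so the NK genes were not alone. All 3 tested eosinophil markers (Ccr3, Prg2, Siglecf) and all 3 basophil and mast cell markers (Mcpt8, Cpa3, Fcer1a) were higher in Ly6C-lo, with sums of 0 to 19721 and 571 to 13812 normalized counts. Mouse 13 gave both the 0 and the 13812, and without it the sums were 1584 to 19721 and 571 to 4377. The same held for 2 of 6 dendritic cell genes (Flt3, Cd209a), 1 of 4 B cell genes (Cd79a), 1 of 5 neutrophil genes (Retnlg, against Mmp8, which was lower), 1 of 3 hepatocyte genes (Apoa1) and 1 of 3 endothelial genes (Clec4g). Of 11 macrophage and monocyte genes, none was higher and 2 (Ly6c2 and Ccr2) were lower, and Cd68 had a log2 difference of 0.07. How much any of these cells added to the members' level was not tested.

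**Figure D3:**
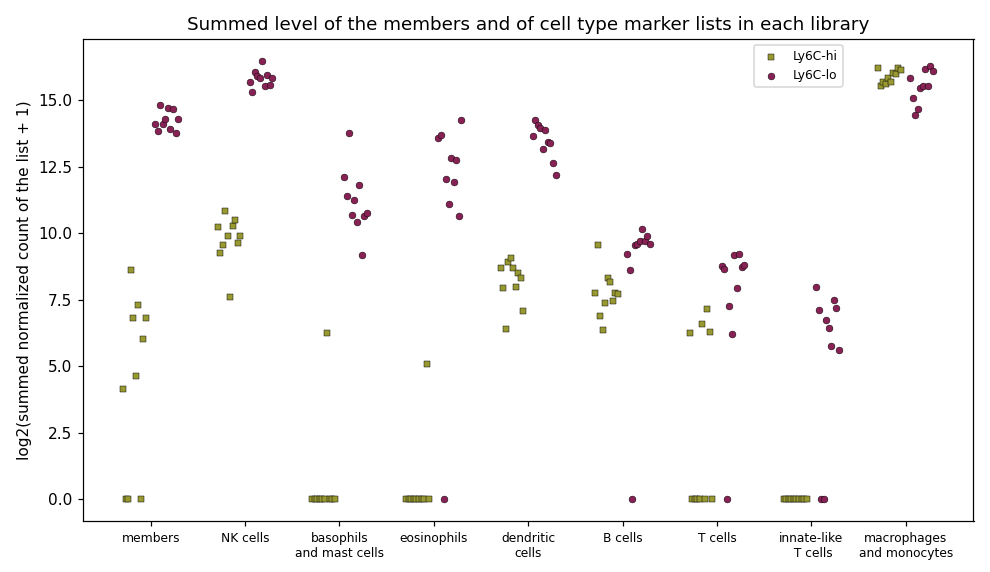
Summed normalized count of the members and of 8 cell type marker lists, as log2(sum + 1), in the 10 Ly6C-hi (squares) and 10 Ly6C-lo (circles) libraries, in order of mouse number within each column. The members and the NK list are higher in every Ly6C-lo library than in any Ly6C-hi library. Both T cell lists lie below the members in Ly6C-lo, with no T cell receptor constant gene in either. The macrophage and monocyte list overlaps between subsets.

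Within Ly6C-lo MoMac the members varied moderately among mice. The standard deviation over the 10 libraries was between 30.9% (Klra8) and 52.6% (Klrc1) of the mean, and between 24.9% (Klrg1) and 48.9% (Klrc1) without mouse 13. Mouse 13 had the highest value for 6 members (Klra4, Klrc1, Klrd1, Klre1, Klrg1 and Klrk1), the lowest for Klrc2, and values of only 50.1 for Klrb1f and 10.4 for Klrb1a. Mice 16 and 18 were usually high, with a median place of 2.5 among the 10 libraries, and mice 17 and 19 low, with a median place of 8.

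Members tended to be high in the same Ly6C-lo libraries, with exceptions. Pearson's r between the log2 values of 2 members was above 0 for 34 of 45 pairs over 10 libraries (median 0.363) and for 38 of 45 without mouse 13 (median 0.334). Within a library all members share 1 size factor, so these values are descriptive. The highest pairs were Klrd1 and Klrk1 (r = 0.810, and 0.718 without mouse 13) and Klra4 and Klrk1 (0.786 and 0.694), and in both the annotated intervals overlap. Klra4 and Klra7 had r = 0.726 without mouse 13. Klra7 ran against Klrb1c in both cases (r = -0.392 and -0.387), and the r of Klrc2 with Klrg1 went from -0.734 to -0.271 once mouse 13 was left out.

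The members' sum was 28.8% to 42.5% of the summed NK list in the 10 Ly6C-lo libraries, with r = 0.841 between the log2 sums (0.861 without mouse 13). Among 6126 genes outside the family with reads in at least 8 Ly6C-lo libraries, Gzma (r = 0.914), Ccl5 (0.887), Ms4a4b (0.875), Xlr4b (0.869), Gimap6 (0.852), Cma1 (0.851), Surf2 (0.814), Tmem68 (0.814), AW112010 (0.807) and 2810428I15Rik (0.806) followed the members' mean profile most closely over 10 libraries. Gzma encodes a granule protease and Ccl5 a chemokine of NK cells and T cells. Without mouse 13, 4 of the first 10 genes were the same (Gzma, Ccl5, Gimap6 and Xlr4b), and the others were Nkg7 (r = 0.901), Hnrnpc (0.899), Dusp2 (0.822), Gm20743 (0.820), Ncr1 (0.800) and Bad (0.800). With mouse 13 included, r was -0.191 for Ncr1, -0.216 for Hnrnpc and -0.212 for Gm20743.

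**Figure D4:**
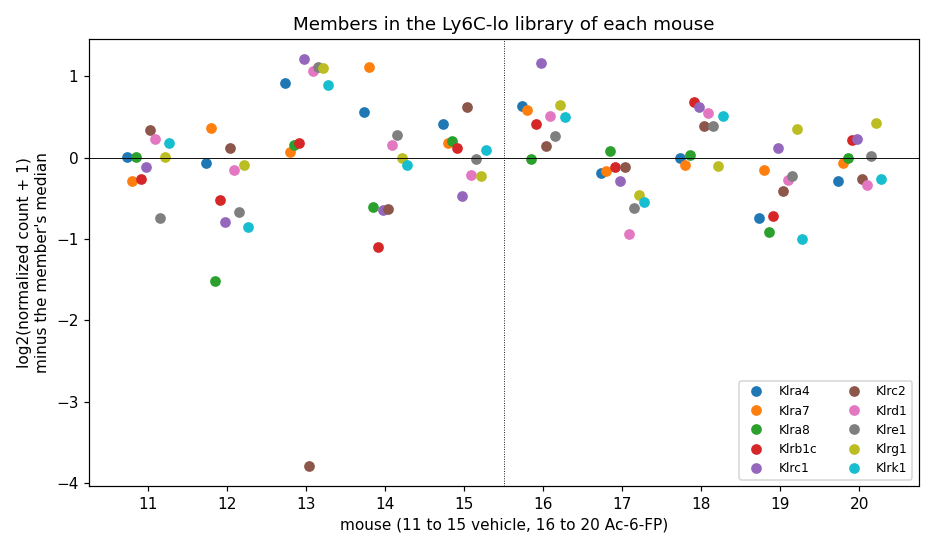
Log2(normalized count + 1) of each member in the Ly6C-lo library of each mouse, minus the member's median over the 10 libraries. Mice 11 to 15 received vehicle and mice 16 to 20 Ac-6-FP. Klrc2 in mouse 13 lies farthest from its median, and the next farthest is Klra8 in mouse 12.

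Whether inhibiting MAIT cells changed the members was asked within Ly6C-lo, a comparison that had no part in their choice. None of the 10 members passed the threshold with Ac-6-FP in the limma fit, none had an unadjusted p under 0.05, and none was called by edgeR or DESeq2. Over all tested genes 0.0522% were called. The log2 differences, Ac-6-FP minus vehicle, ran from -0.48 for Klra4 to 0.61 for Klrc2, with 5 above and 5 below 0, a median of -0.01, and adjusted p-values from 0.57 to 1. The median over all tested genes was 0.91, against 0.35 without mouse 13 and 0.02 after quantile normalization, which gives every library the same distribution.

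The intervals show which sizes of change these 5 against 5 mice leave possible under the scaling used, whose own uncertainty they do not include. For Klrb1c the mean was 8283 ± 2822 (SD, n = 5) normalized counts with Ac-6-FP and 6191 ± 2020.1 with vehicle (log2 difference 0.41, 95% interval -0.30 to 1.13). For Klra7 it was 2019.6 ± 509 and 2515 ± 1009.9 (log2 difference -0.27, interval -0.87 to 0.34), and for Klrg1 1759 ± 503 and 1788 ± 812 (0.02, interval -0.67 to 0.70). Klra4 had the most negative value (-0.48, interval -1.14 to 0.18). The widest interval was that of Klrc2, from -1.19 to 2.42, and without mouse 13 its difference was -0.17 (interval -0.90 to 0.56).

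Single-gene exact permutation tests (two-sided, on log2 values, 5 against 5 mice, smallest possible p = 0.0079) gave p-values from 0.13 for Klra4 to 0.98 for Klrg1. The treatments overlapped for all 10 members. Leaving out mouse 13 reversed the sign for Klrc2, as given above, for Klre1 (from -0.03 to 0.25) and for Klrk1 (from -0.20 to 0.0075). The log2 difference of Klrc1 went from 0.53 (interval -0.44 to 1.5) to 0.87 (interval 0.18 to 1.56). Its exact permutation p was then 0.032 before correction, and its adjusted p over all genes by limma was 0.64. With mouse 13 left out, the Ac-6-FP values of Klrc1 (471 to 1289) still overlapped the vehicle values (332 to 532.5). Of the 15 other tested killer lectin-like receptor genes none was called with Ac-6-FP in Ly6C-lo, nor was any of the 12 NK markers or the 12 signalling genes, which had median log2 differences of 0.73, 0.70 and 0.76, and of 0.15, 0.17 and 0.60 without mouse 13.

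**Figure D5:**
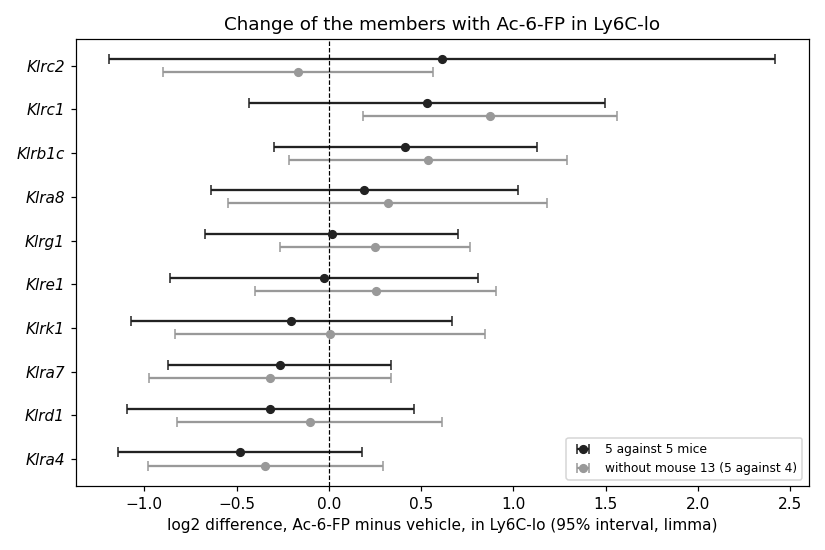
Log2 difference of each member between Ac-6-FP and vehicle mice in Ly6C-lo MoMac, with its 95% interval from limma, for 5 against 5 mice (black) and without mouse 13 (grey). All 10 black intervals include 0, and among the grey ones only that of Klrc1, from 0.18 to 1.56, does not.

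In Ly6C-hi MoMac too few reads fell on the members for a comparison of the treatments. Their summed normalized counts were 0, 0, 16.8, 112 and 391 in the 5 vehicle libraries and 0, 23.7, 63.6, 113 and 158 in the 5 Ac-6-FP libraries. No member was called there by limma, edgeR or DESeq2, against 0.0754% of all tested genes by limma. For the difference in response between subsets limma called 0 of 17248 genes (0%), with 840 at an unadjusted p under 0.05, edgeR called 0 and DESeq2 162, and none of these calls was a member.

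Between the lowest start and the highest end of the members on chromosome 6, 123 genes outside the family passed the filter. Of these, 15 (12.2%) were higher in Ly6C-lo, against 3.44% of all tested genes, and 6 were lower, with a median log2 difference of 0.01 (0.18 without mouse 13, against 0.17 over all tested genes). In 7 of them (5.69%, against 0.974% of all tested genes) every Ly6C-lo library lay above every Ly6C-hi library. The 15 other tested genes of the family had a median of 6.00, and 12 of them (80%) were higher in Ly6C-lo, which the filter fixes in part.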

How the data were processed

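Per the Methods, the authors prepared RNA with a low-input kit, aligned 75-base reads with STAR 2.4.0 to mm10, counted those on constitutive regions of FAST DB genes and scaled the counts with DESeq2. The deposited signal values, called normalized counts, are not divided by length. Each library's values were multiples of 1 step, and 99.985% of those above 0 came out as whole reads (tolerance 0.006). In mouse 15 the Ly6C-hi step was close to 1, so edgeR was also run without that mouse. A floor of 3 reads per library was used for values of 0 and reflects counting error alone.

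Log2(value + 1) of genes with a group mean of at least 10 was fitted with limma 3.58.1 (R 4.3.3), by treatment within each subset and on within-mouse differences between subsets, with Benjamini-Hochberg adjustment over all genes and a threshold of 0.05. Mouse numbers in the labels paired the subsets, and residuals of the same mouse correlated with a median r of 0.0338. Alternatives used edgeR 4.0.16 and DESeq2 1.42.0 on the recovered reads, and exact tests scipy 1.17.1. The members, marker lists and motifs were chosen with earlier results of these data known. The genes named are all members, other family genes with a group mean of at least 10, list genes that passed the threshold or define a list, and the 10 genes with the highest r to the members. Partners with a known role that did not pass, and further genes of the family and lists, were named after their values were seen. Listed symbols missing from the table were not analysed here. A gene of the marker lists is not reported here.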

Additional observations from a re-analysis of the deposited data

Results flagged for a closer look

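A single library stood far from the other 4 of its group by Dixon's criterion for 5 values, applied to normalized counts and not to log2 values. This held in 5 of 20 groups of Ly6C-lo values. A rate of about 1 in 20 would need independent, normally spread groups, and the mouse 13 library gave several of the 5. The criterion was also passed in 4 groups of Ly6C-hi values, where the other libraries were at 0 or 1 read and that rate does not apply. In vehicle Ly6C-lo MoMac, mouse 13 was far above the others for Klrc1 (1336 normalized counts), Klrd1 (4629) and Klrg1 (3233), the library with the fewest reads and genes. In Ac-6-FP Ly6C-lo MoMac, mouse 16 was far above the others for Klra7 (2925), and mouse 19 far below them for Klra8 (553). In Ly6C-hi MoMac, mouse 14 stood out for Klrb1c (48.3) and Klrk1 (110), mouse 11 for Klre1 (7.97) and mouse 20 for Klrc1 (4.47).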

How the results depend on the processing

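The higher level in Ly6C-lo, which the choice of the members fixes, is no sign of stability under the alternatives. Klrc2 was not called between subsets by edgeR (log2 difference 10.43, adjusted p = 0.070). Nor was it by edgeR without mouse 15 (10.31, adjusted p = 0.11). None of the 10 members was called with Ac-6-FP in either subset, or for a response that differed from one subset to the other, under any alternative run. The sign of the change with Ac-6-FP was not stable for 5 members: that of Klrc2, 0.61 as reported, was -0.61 after quantile normalization and -0.31 with genes detected as a covariate, where Klre1 was at 0.41 and Klrk1 at 0.058, and that of Klrg1 was -0.051 after quantile normalization, -0.035 with edgeR, -0.0066 with DESeq2 and -0.13 with edgeR without mouse 15 (an alternative added after seeing the data). Leaving out single mice gave -0.10 to 0.38 for Klra8, -0.17 to 0.94 for Klrc2, -0.21 to 0.25 for Klre1, -0.10 to 0.25 for Klrg1 and -0.43 to 0.0075 for Klrk1.

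Counts over all genes moved too. The 896 genes differing between subsets became 1702 with genes detected as a covariate, 584 with edgeR, 1770 with DESeq2, 467 with edgeR without mouse 15, and 642 to 1162 without single mice. Of the 896, 593 were higher in Ly6C-lo and 303 lower, against 723 and 979 with the covariate and 617 and 491 after quantile normalization. The 9 genes called with Ac-6-FP in Ly6C-lo became 2 with a pseudocount of 10, without a filter, with a group mean of 100 or with the covariate, 0 after quantile normalization or with edgeR, with and without mouse 15, 118 with DESeq2, and 0 to 103 without single mice (103 without mouse 11). The 13 in Ly6C-hi became 5 without a filter, 4 with a group mean of 100, 0 after quantile normalization, with the covariate or with edgeR, with and without mouse 15, 158 with DESeq2, and 0 to 133 without single mice (133 without mouse 11). The 0 genes differing in response became 2 with a group mean of 100, 1 after quantile normalization, 162 with DESeq2, 3 with no replicate block and 0 to 4 without single mice. Without the block the count between subsets was also 896. Depth limits the members mainly in Ly6C-hi, where 0 allows up to 3 reads. The cause of these differences was not tested.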
